A study of Mus musculus with 6 samples.

Results

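The AP-1 transcription factors described here are 10 genes, Fos, Fosb, Fosl1, Fosl2, Jun, Junb, Jund, Atf3, Batf and Maff, taken by symbol from a deposited table of 35434 genes. All 10 were present. The libraries came from lesional skin of mice with a psoriasis-like disease, each given transferred regulatory T cells (Tregs), either control cells (Ctrl-Treg) or cells treated with lenvatinib, an inhibitor of receptor tyrosine kinases such as the VEGF and FGF receptors (Lenv-Treg). Each group had 3 RNA-seq libraries. Both groups had the disease and both received Tregs, and the labels give no age, strain, disease model or untreated skin, and leave unsaid if each sample was a different mouse. The p-values therefore speak only of the spread among these libraries, some of which may be technical.

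AP-1 is a dimer of basic leucine zipper proteins. JUN proteins pair with one another or with FOS proteins, and FOS proteins need a JUN partner to bind DNA, while ATF3, BATF and the small MAF protein MAFF join the network as further partners that can activate or repress. Fos, Fosb, Jun and Junb are immediate early genes, transcribed within minutes of growth factor, cytokine or stress signals through MAP kinases. In epidermis AP-1 proteins take part in keratinocyte differentiation and in the wound response, and loss of JunB and c-Jun in mouse epidermis is a known model of psoriasis-like disease.

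The DNA letters that AP-1 and its relatives read are short, and the members' own promoters carry related ones. Windows of 250 bases upstream of RefSeq starts (build GRCm38.p6) were found for 9 of the 10 members, all but Fosl1. These 11 windows were searched on both strands. The classical AP-1 site TGANTCA was in 0 of the 11 windows and in 6.75% of 32851 windows of all genes. The longer site TGACNTCA, bound by JUN and ATF dimers, was in 3 of the 11 (27.3%, from Jun and 2 windows of Maff) and in 7.49% of all windows, and the short ATF/CREB element TGACG, which can lie inside TGACNTCA, was in 7 of the 11 (63.6%) in 17.8% of all windows, and in a higher share, 3461 of 13858 (25%), of the windows of tested genes. A CArG box, the site of serum response factor, was in 0 of the 11 and in 1.47% of all windows. Bases more than 250 upstream of a start were not searched, so a site there would be missed. A match describes letters only, and no binding was measured. The stretches below hold matches in the windows of 7 members, with 1 match shown for each, 5′ to 3′ on the gene's strand, with the match in capitals.

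Jun: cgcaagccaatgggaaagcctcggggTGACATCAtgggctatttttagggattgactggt
Fos: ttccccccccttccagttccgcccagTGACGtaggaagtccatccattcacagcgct
Fosb: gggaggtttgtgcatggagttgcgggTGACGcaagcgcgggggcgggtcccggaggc
Junb: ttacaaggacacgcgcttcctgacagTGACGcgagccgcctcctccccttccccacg
Atf3: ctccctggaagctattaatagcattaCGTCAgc
Batf: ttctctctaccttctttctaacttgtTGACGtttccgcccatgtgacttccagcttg
Maff: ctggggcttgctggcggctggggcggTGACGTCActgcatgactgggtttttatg

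The Jun stretch is chr4:95052234-95052293 on the minus strand, with its match 45 to 38 bases before the start. The Fos stretch is chr12:85473798-85473854 (plus strand), with the match 66 to 62 bases before the start. The Fosb stretch is chr7:19310075-19310131 (minus), the Junb stretch chr8:84978824-84978880 (minus), the Atf3 stretch chr1:191183334-191183366 (minus) and the Batf stretch chr12:85686596-85686652 (plus). The Maff stretch is chr15:79347465-79347519 (plus), from 1 of 3 Maff windows, and holds the palindrome TGACGTCA 29 to 22 bases before that start. All of these are upstream of the transcript.

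Values are FPKM, fragments per gene corrected for gene length and library depth, as deposited. Depth recovered from the values was 38704536 to 40248462 assigned reads per library, and members had from 42 reads (Fosl1) to 28676 reads (Fos) in a library. Each difference subtracts Ctrl-Treg from Lenv-Treg means of log2(FPKM + 1), a scale that understates changes of low genes, with adjusted p from limma over 13945 tested genes. All 10 members passed the filter on low values. Of them, 5 rose in Lenv-Treg (Fos, Fosl1, Junb, Batf and Maff), 0 fell and 5 did not pass at 0.05, while 11.0% of all tested genes rose and 30.8% fell. In 6 of the 10 every Lenv-Treg library lay above every Ctrl-Treg library, and in 1 (Jund) below, against 14.4% and 41.0% of all tested genes. The median difference was 0.85 over the members and -0.17 over all tested genes. Scaling to equal medians of ratios moved the median of all genes to 0.00 and rescaling to TPM moved it to -0.44, and the members' median was then 1.04 and 0.61. Which scaling is right cannot be read from the values.

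**Figure D1:**
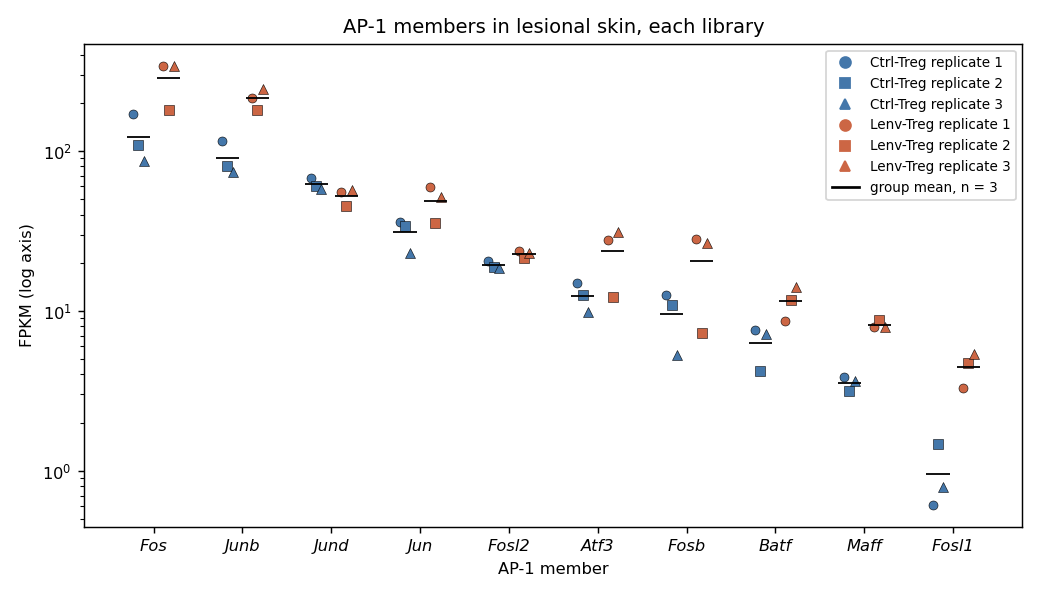
FPKM of each AP-1 member (log axis) in the 3 Ctrl-Treg libraries (blue) and the 3 Lenv-Treg libraries (orange), one marker shape per replicate number, with a line at each group mean. Fos and Junb are the highest members and Fosl1 the lowest, and in 6 of the 10 members, against 14.4% of all tested genes, every Lenv-Treg library lies above every Ctrl-Treg library.

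By level, Fos and Junb led the family in both groups. In Ctrl-Treg the order of mean FPKM was Fos (122 ± 44.0, SD, n = 3), Junb (90.1 ± 22.2), Jund (62.0 ± 5.19), Jun (30.9 ± 7.05), Fosl2 (19.3 ± 0.980), Atf3 (12.4 ± 2.58), Fosb (9.57 ± 3.80), Batf (6.32 ± 1.85), Maff (3.54 ± 0.355) and Fosl1 (0.956 ± 0.452). Of neighbours in this order, the ranges of Fos and Junb, of Atf3 and Fosb, and of Fosb and Batf overlapped, and the others did not. In Lenv-Treg the order at the top was the same, with Fos at 287 ± 91.3 and Junb at 213 ± 33.0 FPKM, whose ranges overlapped, and Jund (52.6 ± 6.28) and Jun (48.7 ± 12.2) also overlapped there.

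Among the FOS proteins, Fos, the founding member and a strong activator, was 171, 108 and 86.0 FPKM in the Ctrl-Treg libraries and 340.1, 181 and 339 FPKM in the Lenv-Treg libraries. The groups did not overlap, although the lowest Lenv-Treg library (replicate 2) lay close to the highest Ctrl-Treg library (replicate 1). Fos rose 2.36-fold (log2 difference 1.23, SE 0.32, limma adjusted p = 0.0190). That call ended without any 1 of 4 libraries, Ctrl-Treg replicate 2 or 3 or Lenv-Treg replicate 1 or 3 (limma adjusted p = 0.0504, 0.0511, 0.0585 and 0.0662), and with no filter on low values (limma adjusted p = 0.0587) or quantile normalization (1.07, limma adjusted p = 0.0508).

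Fosl1 encodes FRA-1, a FOS protein without the strong activation domain of c-FOS that is known from wound edges and migrating epithelia. It was 0.612, 1.47 and 0.788 FPKM with Ctrl-Treg (192 reads in all) and 3.29, 4.71 and 5.35 FPKM with Lenv-Treg (908 reads). Every Lenv-Treg library was above every Ctrl-Treg library. Fosl1 rose 4.65-fold (1.48, SE 0.20, limma adjusted p = 0.00126), with the highest fold of the 10 members. Its difference was 2.16 with a pseudocount of 0.1 and 2.47 with voom on the recovered reads.

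The other two FOS genes did not pass. Fosb, an immediate early gene, was 12.6, 10.8 and 5.30 FPKM with Ctrl-Treg and 28.1, 7.24 and 26.6 FPKM with Lenv-Treg. Replicates 1 and 3 of Lenv-Treg were above all Ctrl-Treg libraries, while replicate 2 was below 2 of them. The difference was 0.90 (SE 0.51, 95% interval -0.28 to 2.09, limma adjusted p = 0.189), and 1.50 without Lenv-Treg replicate 2 (limma adjusted p = 0.0165). Fosl2, which encodes FRA-2, was 20.4, 18.9 and 18.6 FPKM with Ctrl-Treg and 23.7, 21.3 and 23.0 FPKM with Lenv-Treg. These groups did not overlap, but the difference was small at 0.22 (SE 0.09, limma adjusted p = 0.0796). It passed after scaling to equal medians of ratios (0.43, limma adjusted p = 0.00976), with voom (0.43, adjusted p = 0.0112) and after quantile normalization (0.31, limma adjusted p = 0.0331), and it was -0.05 after rescaling to TPM (limma adjusted p = 0.690), so its direction depends on the scaling.

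The 3 JUN genes differed from one another. Junb, an immediate early gene whose protein can oppose c-JUN, was 115, 81.0 and 73.9 FPKM with Ctrl-Treg and 214, 179 and 245 FPKM with Lenv-Treg. The groups did not overlap, and Junb rose 2.36-fold (1.25, SE 0.19, limma adjusted p = 0.00230). Jun, the gene of c-JUN, was 36.1, 33.8 and 22.9 FPKM with Ctrl-Treg and 59.2, 35.4 and 51.6 FPKM with Lenv-Treg. Lenv-Treg replicate 2 lay within the Ctrl-Treg range. The difference of Jun was 0.63 (SE 0.23, 95% interval 0.10 to 1.17, limma adjusted p = 0.0596), which passed without that library (0.84, limma adjusted p = 0.0279), with medians of ratios made equal (0.84, limma adjusted p = 0.0255) and with voom (0.85, adjusted p = 0.0216).

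Jund encodes the JUN protein that is made in resting cells and is not an immediate early gene. It was 67.8, 60.2 and 57.8 FPKM with Ctrl-Treg and 55.4, 45.5 and 57.1 FPKM with Lenv-Treg. Every Lenv-Treg library was below every Ctrl-Treg library, by less than 1 FPKM at the closest, and 41.0% of all tested genes lay apart in this direction. The difference was -0.23 (SE 0.12, 95% interval -0.52 to 0.05, limma adjusted p = 0.156), close to the median of all genes. With medians of ratios made equal it was -0.03, and it passed after rescaling to TPM (-0.52, limma adjusted p = 0.0117).

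**Figure D2:**
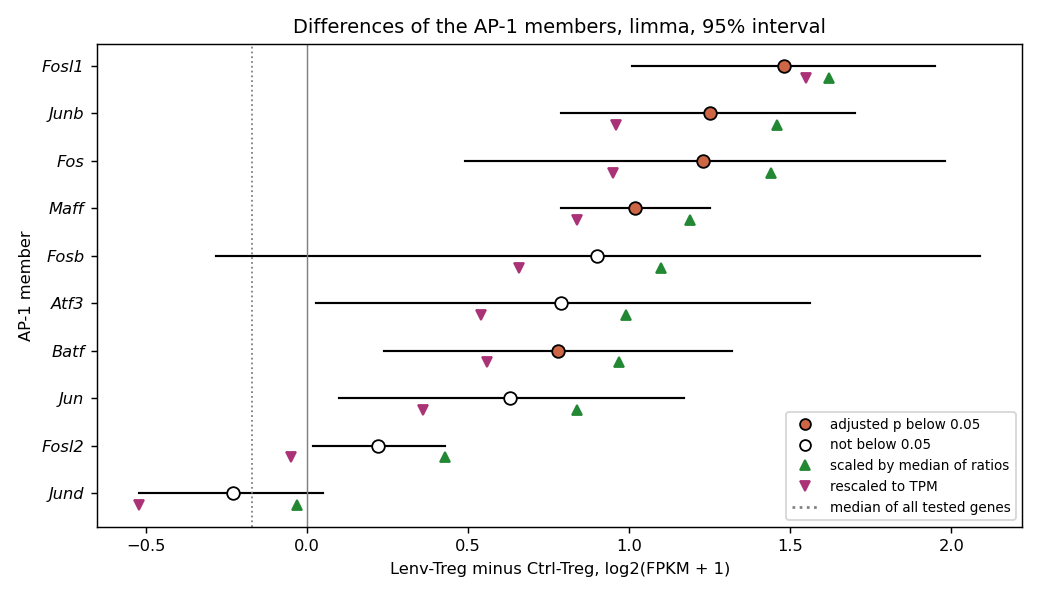
Difference of each member, Lenv-Treg minus Ctrl-Treg in log2(FPKM + 1), with its 95% interval from limma. Filled circles passed at an adjusted p of 0.05, triangles give the difference under 2 other scalings, and the dotted line is the median of all tested genes (-0.17). Fosl1, Junb, Fos, Maff and Batf are filled, and the TPM values lie below the others except for Fosl1.

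The make-up of the JUN genes shifted with these changes. Junb held 52.7%, 46.3% and 47.8% of the summed FPKM of the 3 JUN genes with Ctrl-Treg and 65.1%, 68.9% and 69.3% with Lenv-Treg. Jund held 30.9%, 34.4% and 37.4% with Ctrl-Treg and 16.9%, 17.5% and 16.1% with Lenv-Treg, while Jun held 14.8% to 19.3% and 13.6% to 18.0%. The groups did not overlap for Junb or Jund and did for Jun. The ratio of Junb to Jund, which a scaling factor per library cannot alter, was 1.44 ± 0.23 with Ctrl-Treg and 4.04 ± 0.23 with Lenv-Treg (exact permutation p = 0.1, the smallest that 3 against 3 libraries allow, and 0.183 adjusted over 22 such values).

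Among the FOS genes, Fos held 77.6% to 83.6% of the summed FPKM with Ctrl-Treg and 84.5% to 86.1% with Lenv-Treg. The share of Fosl2 was 9.98% to 16.8% with Ctrl-Treg and 5.85% to 9.91% with Lenv-Treg, at the nearest less than 1 percentage point apart. Fosl1 held 1.05% or less with Ctrl-Treg and 0.83% to 2.19% with Lenv-Treg, so even after its rise it was a minor part of FOS transcripts. The 4 FOS genes summed to 151 ± 48.0 FPKM with Ctrl-Treg and 335 ± 104 FPKM with Lenv-Treg, and the 3 JUN genes to 183 ± 33.1 and 314 ± 48.5 FPKM. These are transcript levels, and protein dimers were not measured.

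**Figure D3:**
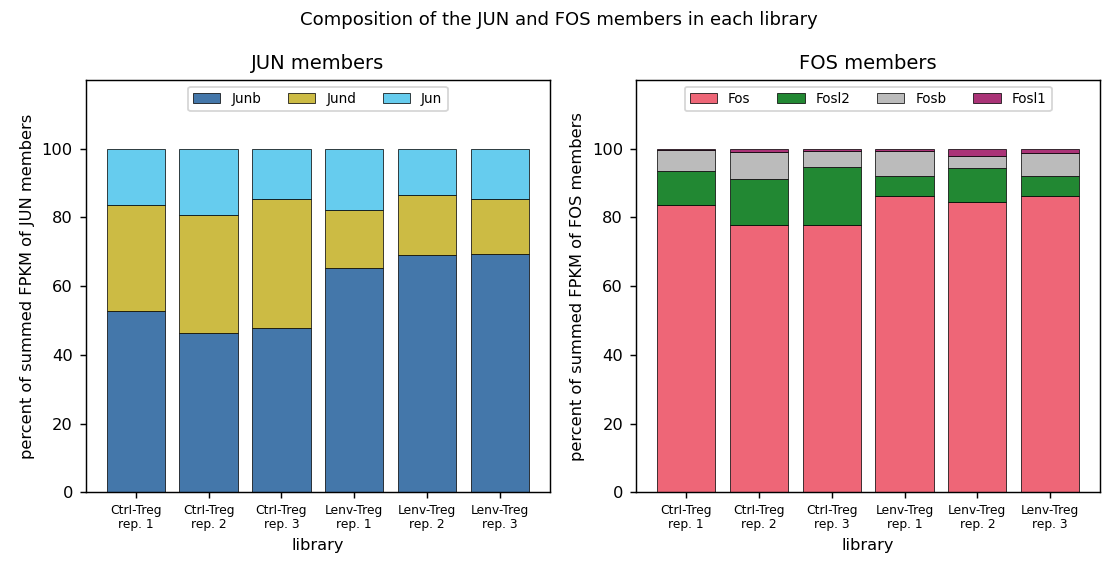
Percent of the summed FPKM of the 3 JUN genes (left) and the 4 FOS genes (right) held by each gene in each library. Junb takes 46.3% to 52.7% of the JUN genes with Ctrl-Treg and 65.1% to 69.3% with Lenv-Treg, and Jund moves the opposite way, from 30.9% to 37.4% down to 16.1% to 17.5%, while Fos dominates the FOS genes in all 6 libraries.

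The 3 remaining members are partners from other branches of the leucine zipper family. Maff, a small MAF protein without an activation domain that dimerizes with itself or with CNC factors such as NRF2, was 3.85, 3.15 and 3.62 FPKM with Ctrl-Treg and 7.94, 8.71 and 7.90 FPKM with Lenv-Treg. Libraries agreed closely within each group, and Maff rose 2.31-fold (1.02, SE 0.10, limma adjusted p = 0.000305), the smallest adjusted p of the 10 members. Its call held under each of the 13 alternatives, as did those of Fosl1 and Junb.

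Batf, a partner of JUN proteins and IRF4 in lymphocytes that is required for Th17 cells, was 7.64, 4.21 and 7.12 FPKM with Ctrl-Treg and 8.69, 11.7 and 14.05 FPKM with Lenv-Treg. The groups did not overlap, and Batf rose 1.82-fold (0.78, SE 0.23, limma adjusted p = 0.0299). The call ended without Ctrl-Treg replicate 2 (0.55, limma adjusted p = 0.0628), Lenv-Treg replicate 2 (0.76, limma adjusted p = 0.0862) or Lenv-Treg replicate 3 (0.64, limma adjusted p = 0.0949), with no filter (limma adjusted p = 0.0800) and after rescaling to TPM (0.56, limma adjusted p = 0.0561). The 8 T cell markers found in the table summed to 15.2 to 22.7 FPKM with Ctrl-Treg and 12.1 to 17.9 FPKM with Lenv-Treg, and of 7 tested 1 rose and 1 fell.

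Atf3, a stress-induced factor that represses inflammatory genes in myeloid cells, was 14.98, 12.5 and 9.83 FPKM with Ctrl-Treg and 27.7, 12.2 and 31.1 FPKM with Lenv-Treg. Lenv-Treg replicate 2 again lay within the Ctrl-Treg range. The difference was 0.79 (SE 0.33, 95% interval 0.03 to 1.56, limma adjusted p = 0.0872), 1.19 without that library (limma adjusted p = 0.00509) and 1.04 with voom (adjusted p = 0.0482).

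Within groups most members, but not all, shared their lowest library. Lenv-Treg replicate 2 was the lowest library of its group for 7 of the 10 members, by 1.19 below the group mean for Fosb, 0.80 for Atf3, 0.60 for Fos and 0.42 for Jun on the log2(FPKM + 1) scale. Fosl1, Batf and Maff were instead slightly above their group mean there, by 0.09, 0.05 and 0.08. In Ctrl-Treg, replicate 3 was the lowest library for 7 members and replicate 1 the highest for 9. Of all 13945 tested genes, 4042 were highest in Ctrl-Treg replicate 1 within their group. So were 11 of the 12 monocyte and macrophage markers described below, but 0 of the 12 hair follicle markers. Of 23 other immediate early genes tested, 16 were lowest in Lenv-Treg replicate 2 and 17 in Ctrl-Treg replicate 3 within their groups, against 4604 and 4276 of 13945 tested genes. At the top of Ctrl-Treg they differed from the members, with 10 highest in replicate 1 and 10 in replicate 2. The labels give no time of sampling, and what set these levels was not tested.

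**Figure D4:**
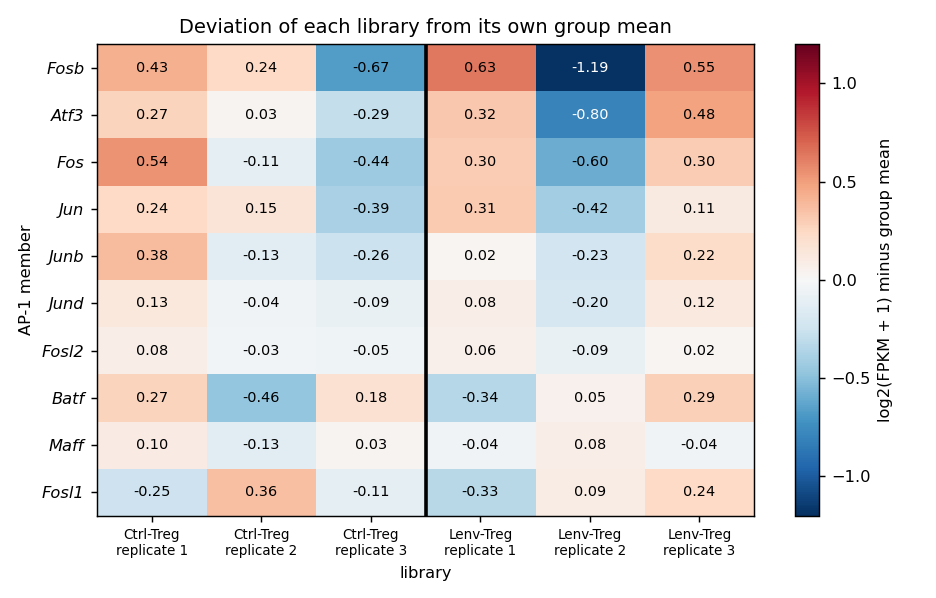
Deviation of each library from its own group mean on the log2(FPKM + 1) scale, for each AP-1 member (rows) and library (columns, Ctrl-Treg left and Lenv-Treg right of the line). Lenv-Treg replicate 2 is low for Fosb (-1.19), Atf3 (-0.80), Fos (-0.60) and Jun (-0.42) and near 0 for Batf, Maff and Fosl1.

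The genes whose profile over the 6 libraries lay nearest to that of Fos were Zfp36, Depp1 and Dusp1, with root mean square differences of 0.114, 0.176 and 0.191 on the centred log2(FPKM + 1) scale. Zfp36 encodes an RNA-binding protein that destabilizes cytokine transcripts and was 101, 59.9 and 55.0 FPKM with Ctrl-Treg and 184, 118.8 and 182 FPKM with Lenv-Treg, the same order of libraries within each group as for Fos. The nearest to Fosl1 were Ms4a8a, Fam83a and Noct (0.129, 0.150 and 0.188). These are likenesses over 6 libraries, which share the split between the groups.

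Other genes of the pathway were taken from lists, with the counts read beside the 11.0% of all tested genes that rose and the 30.8% that fell. Of 19 tested relatives of the members (further ATF, BATF, CREB, MAF and C/EBP genes), 4 rose and 5 fell (median -0.13). The count that fell was 11 after rescaling to TPM, 1 with quantile normalization, 2 with voom, 3 with medians of ratios made equal or no filter, and 3 without Ctrl-Treg replicate 1 or Lenv-Treg replicate 3, while 3 to 5 rose under every alternative. Cebpd, a C/EBP factor of the acute phase, rose from 12.6 ± 3.45 to 36.7 ± 5.11 FPKM (1.50, limma adjusted p = 0.001005). Cebpb, which can pair with AP-1 proteins, rose from 63.1 ± 8.84 to 123 ± 17.9 FPKM, Crem rose by 0.58, and Atf4, the factor of the integrated stress response, rose by 0.50, a call that ended after rescaling to TPM (0.21, limma adjusted p = 0.0914). Batf2 and Batf3, the closest relatives of Batf, both fell: Batf2 from 1.87 ± 0.407 to 0.902 ± 0.318 FPKM (limma adjusted p = 0.0194) and Batf3 from 8.26 ± 1.04 to 4.66 ± 1.30 FPKM (limma adjusted p = 0.0164). They were named after their values were seen. The call of Batf2 ended without Ctrl-Treg replicate 1 or Lenv-Treg replicate 3 (limma adjusted p = 0.0514 and 0.0546) with no filter (limma adjusted p = 0.0574) and with medians of ratios made equal (limma adjusted p = 0.0573), and neither call held under quantile normalization or voom (adjusted p from 0.0591 to 0.173).

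Of 19 tested genes of the upstream MAP kinase pathway, 3 rose and 6 fell (median -0.09), shares near those of all tested genes. The counts moved with the setting: 4 rose and 1 fell with medians of ratios made equal, 1 rose and 10 fell after rescaling to TPM, 1 rose with no filter, 2 fell with quantile normalization or voom, and with 1 library left out 1 to 3 rose (1 without Ctrl-Treg replicate 2 or 3 or Lenv-Treg replicate 2) and 1 to 5 fell (1 without Lenv-Treg replicate 3). Map2k1, the gene of the ERK kinase MEK1, rose from 29.8 ± 2.95 to 42.9 ± 3.17 FPKM, and Map3k1 fell from 9.77 ± 1.42 to 6.20 ± 0.698 FPKM. Mapk3 (ERK1) was 87.8 ± 10.1 and 98.7 ± 6.91 FPKM (limma adjusted p = 0.282) and Mapk13, a p38 kinase, 70.5 ± 15.7 and 71.4 ± 4.87 FPKM (limma adjusted p = 0.863). These pathways act by phosphorylation, which RNA does not show. Of the 6 listed serum response and ternary complex factors, 1 rose and 3 fell (0 rose and 4 fell after rescaling to TPM). Elk3 rose by 0.58 (0.34 after rescaling to TPM, limma adjusted p = 0.0819). Elk1 fell by 0.49, Mrtfa fell by 0.51 and Elk4 fell by 0.56 (limma adjusted p = 0.0497). The call of Elk4, named after its value was seen, ended without any 1 of the libraries except Lenv-Treg replicate 1 (limma adjusted p up to 0.130), and with a pseudocount of 0.1, no filter, median ratio scaling, quantile normalization or voom (adjusted p = 0.0539 to 0.225). Srf was 9.72 ± 0.888 and 8.49 ± 0.421 FPKM (limma adjusted p = 0.188), with a difference that depends on the scaling (-0.17, 0.02 with medians of ratios made equal, and -0.45 after rescaling to TPM, where it passed at a limma adjusted p of 0.0110).

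Of 16 feedback inhibitors, the dual specificity phosphatase, Sprouty and Spred genes, 5 rose and 5 fell (median -0.08). The counts were 6 and 1 with quantile normalization, 3 and 8 after rescaling to TPM and 3 and 3 with no filter, and with 1 library left out 3 to 4 rose (3 without Ctrl-Treg replicate 1 or Lenv-Treg replicate 1 or 2) and 2 to 6 fell (2 without Lenv-Treg replicate 2). Dusp1, a phosphatase of p38 and JNK that is itself an immediate early gene, was 101, 77.0 and 63.8 FPKM with Ctrl-Treg and 210, 161 and 238 FPKM with Lenv-Treg and rose 2.52-fold (1.33, SE 0.20, limma adjusted p = 0.00218). Dusp5, a nuclear ERK phosphatase, rose from 6.40 ± 0.517 to 13.8 ± 0.383 FPKM and Dusp7 from 26.8 ± 1.90 to 42.4 ± 3.63 FPKM. Dusp8, a phosphatase of JNK and p38, fell from 2.29 ± 0.476 to 0.826 ± 0.253 FPKM.

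Of the 23 tested immediate early genes outside the family, 12 rose and 2 fell (median 0.54). Ier3 rose 3.74-fold to 124 ± 24.1 FPKM, Csrnp1 2.72-fold to 12.6 ± 2.31 FPKM, Klf10 1.79-fold to 28.4 ± 0.263 FPKM, and Zfp36 2.25-fold to 162 ± 37.1 FPKM. The 2 that fell were Egr2 (by 0.63) and Egr3 (by 0.74), zinc finger factors induced by the same kinds of signal as Fos, named after their values were seen. The call of Egr2 ended without any 1 of the libraries except Lenv-Treg replicate 1 (limma adjusted p up to 0.101) and under the same 5 settings as that of Elk4 (adjusted p = 0.0503 to 0.157). The call of Egr3 (limma adjusted p = 0.00342) held under all 13 alternatives. The count of 12 was 16 with medians of ratios made equal and 6 after rescaling to TPM, 8 with no filter, and 8 without Ctrl-Treg replicate 3, Lenv-Treg replicate 1 or Lenv-Treg replicate 3. In the list of heat shock and stress genes, 1 of 10 rose and 2 fell (median 0.02). Hspa1b rose by 0.61, a call that ended after rescaling to TPM (0.34, limma adjusted p = 0.0529), and Dnaja1 fell by 0.69. Hspa8 (501 ± 18.7 and 637 ± 47.8 FPKM) and Hspb1 (192 ± 23.5 and 175 ± 17.8 FPKM) did not pass, but Hspa8 passed with medians of ratios made equal (0.56, limma adjusted p = 0.0206) and with voom (0.55, adjusted p = 0.0158), and Hspb1 was lower after rescaling to TPM (-0.41, limma adjusted p = 0.0287).

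Textbook AP-1 target genes rose more often than not. Of 30 tested, 24 rose and 3 fell (Ccnd1, Lor and Itgb6, the last not without Lenv-Treg replicate 2 or with quantile normalization, limma adjusted p = 0.0534 and 0.134), with a median of 1.39 against -0.17 for all tested genes. The list was chosen with earlier results of these data known and holds cytokine and keratinocyte genes with many other regulators. Its S100a8, S100a9 and Mmp9 are also among the neutrophil markers described below. S100a8 and S100a9, the calprotectin genes, rose by 9.09 and 8.92 and Il1b by 5.72, and Ccnd1, the gene of cyclin D1, fell from 54.5 ± 8.36 to 15.8 ± 1.79 FPKM (limma adjusted p = 0.000151).

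Of 31 promoter windows of the target list, 10 (32.3%) held the classical site TGANTCA. The share was 6.75% in windows of all genes and 5.35% in those of tested genes. The list consists of genes known as AP-1 targets, so its share of 32.3% is not independent of how the list was chosen. The sites of 2 matrix metalloproteinase genes, of the urokinase receptor gene Plaur and of the loricrin gene Lor are shown because they share the site and not the response.

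Mmp3: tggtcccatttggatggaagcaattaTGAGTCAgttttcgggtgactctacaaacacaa
Mmp13: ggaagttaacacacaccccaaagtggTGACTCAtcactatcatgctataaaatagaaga
Plaur: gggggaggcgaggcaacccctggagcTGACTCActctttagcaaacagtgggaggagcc
Lor: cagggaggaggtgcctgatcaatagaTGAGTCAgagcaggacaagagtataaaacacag

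In the same build these are chr9:7445750-7445808, chr9:7272453-7272511 and chr7:24462388-24462446 on the plus strand and chr3:92083158-92083216 on the minus strand. Mmp3 was 73.6, 49.5 and 56.4 FPKM with Ctrl-Treg and 198, 303 and 379 FPKM with Lenv-Treg (2.24, limma adjusted p = 0.000572). Mmp13 was 1.50, 0.573 and 0.299 FPKM and 2.86, 4.39 and 6.003 FPKM (1.61, limma adjusted p = 0.00407), and Plaur was 6.85, 4.73 and 6.33 FPKM and 31.1, 59.1 and 52.5 FPKM (2.76, limma adjusted p = 0.000208). Lor, a late differentiation gene of the cornified envelope, was 512, 432 and 630 FPKM with Ctrl-Treg and 242, 79.4 and 96.5 FPKM with Lenv-Treg, a fall by 2.07 (limma adjusted p = 0.00545). The matching letters alone thus went with rises in the first 3 genes and a fall in the last. The 4 were picked after their values were seen. Of the other listed genes with the site, Il6, Sprr1a and Sprr1b rose, Ivl and Mmp12 did not pass and Mmp10 was not tested.

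Skin is a mixture of cells, and fewer cells of a type cannot be told apart from less RNA per cell. Markers of several cell types also differed between the groups, some upward and some downward. The 12 neutrophil markers summed to 55.3 to 196 FPKM with Ctrl-Treg and 38096 to 53796 FPKM with Lenv-Treg, mostly S100a8 and S100a9, and 9 of 10 tested rose, with Mpo at 0 in at least 1 library. Of 12 monocyte and macrophage markers 7 rose and 1 fell (sums 2438 to 3120 and 3822 to 4319 FPKM), and of 12 keratinocyte markers 4 rose and 3 fell (3256 to 4902 and 7565 to 9500 FPKM). All 12 hair follicle markers fell (1529 to 3346 and 3.00 to 20.4 FPKM, with Krt31 and Krt33a at 0 in every Lenv-Treg library), and 5 of 10 fibroblast markers fell and 1 rose (4923 to 6118 and 2635 to 3719 FPKM). Endothelial markers rose in 2 of 10, muscle markers fell in 1 of 10 and adipocyte markers fell in 6 of 8, each with no call the other way. Keratinocyte markers were thus present in all 6 libraries of this tissue labelled skin, beside muscle markers at 3224 to 11467 FPKM. The part of cell composition in the AP-1 differences was not tested.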

How the data were processed

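The data were 6 RNA-seq libraries of mouse skin, 3 per group by the treatment label. The authors deposited 1 table of FPKM per gene. Per the submitters' processing notes the genome was GRCm39; for the aligner, counter, annotation and filters the entry is: not given in the sources used here. All columns matched a sample title. A gene's low values stood in whole-number proportions, which gave the depth of each library: 171 of 2035 genes with low values fixed the constant by their reference length. Whole reads were then recovered for 13945 of 13945 tested genes (tolerance 0.005 reads plus 1.5e-07 per read), 99.27% to 99.46% of the depth.

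Genes reaching 0.5 FPKM in 3 or more libraries were tested with limma 3.58.1 in R 4.3.3 (eBayes with trend) on log2(FPKM + 1), two-sided, with Benjamini-Hochberg adjustment over all tested genes and a threshold of 0.05. The script was tested on simulated data with few changed genes and no shift of scaling. That test does not bear on the choice of scaling. Named were all members, 4 genes of each list (2 by highest mean FPKM, then 2 more by smallest p) and the 3 genes nearest to Fos and to Fosl1, unless stated. The members and lists were chosen with earlier results of these data known. Loricrin was matched under its table name, Lor. Alternatives were a pseudocount of 0.1, no filter, 3 scalings, the replicate number as a block, each library left out, and voom (with TMM factors) on recovered reads. Promoters are from RefSeq tables of GRCm38.p6.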

Additional observations from a re-analysis of the deposited data

How the results depend on the processing

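The count of 5 members that rose was 3 with no filter on low values, where more genes were tested, and 8 with voom on recovered reads, and it ranged from 3 to 7 when 1 library was left out (3 without Ctrl-Treg replicate 2 or Lenv-Treg replicate 3, 7 without Lenv-Treg replicate 2). No member fell except Jund after rescaling to TPM, a count of 1. Over all tested genes, 1532 rose and 4289 fell. After scaling to equal medians of ratios these were 2417 and 2417, after rescaling to TPM 947 and 7970, and with voom 2379 and 2554; 2304 fell after quantile normalization. With 1 library left out, 1152 to 1447 rose and 2780 to 3900 fell, the lowest counts without Lenv-Treg replicate 2. Of the pathway list genes 49 rose and 24 fell, and 14, 39, 9 and 14 fell under median ratio scaling, TPM, quantile normalization and voom, with 13 to 24 when 1 library was left out. Differences that changed sign, none of them past the threshold under that setting, were Fosl2 (-0.05), Mapk3 (-0.12) and Mapk13 (-0.24) after rescaling to TPM, Mapk13 without Ctrl-Treg replicate 2 (-0.15) or Lenv-Treg replicate 1 (-0.01; its range over left-out libraries was -0.15 to 0.15), and Srf (0.02 and 0.01) and Hspb1 (0.09 and 0.07) after median ratio scaling and with voom. Ratios of group means were recomputed for the summed FOS genes, JUN genes and all 10 members. They were also recomputed for the Junb and Jund shares of JUN genes and the Fos share of FOS genes. Under median ratio scaling, TPM and each left-out library, all moved by less than 1 SD of the ratios between single libraries. That margin is wide. Leaving out 1 library moves a group mean by less than that library's own distance from it, so small moves were likely in advance. A scaling factor per library cannot alter a share within a library, so only the left-out libraries could move the shares. The other shares were not recomputed. With the replicate number as a block, 5 members rose, 1637 genes rose and 4270 fell, and the call of Hspa8 was gained (0.34, adjusted p = 0.0485). Deviations of same-numbered libraries correlated at 0.196, -0.011 and 0.328 for numbers 1, 2 and 3. Replicates 1 and 3 of each group correlated best with their own number and replicate 2 did not. The labels do not say if a shared number means a pair, and these values do not settle it.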
